A study of Caenorhabditis elegans with 8 samples.

Results

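The genes gsp-1, gsp-2, gsp-3 and gsp-4 encode catalytic subunits of protein phosphatase 1 (PP1) in Caenorhabditis elegans. These 4 genes were taken by name from the 46934 gene IDs counted in each library. They are described here in dissected gonads as general copies (gsp-1 and gsp-2) and sperm copies (gsp-3 and gsp-4). All 4 were among the 10302 genes that passed the filter on low counts and were tested.

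RNA was read from gonads dissected from young adults of 3 genotypes, all labelled as germline tissue. The wild-type group (wt) had 3 libraries, replicates 3, 4 and 5. The sin-3 group carried the allele sin-3(syb2172) and also had 3 libraries, replicates 3, 4 and 5, while the hda-3 group carried hda-3(ok1991) and had 2 libraries here, replicates 4 and 5. SIN-3 is the scaffold of the SIN3 histone deacetylase corepressor complex, HDA-3 belongs to the class I histone deacetylases, and each mutant was compared with wt. Each library pooled the gonads of 9 to 12 animals, whose sex the labels do not give.

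PP1 is a serine/threonine phosphatase whose small catalytic subunit has little specificity of its own. Regulatory subunits dock onto it and direct it to chromosomes, kinetochores, centrosomes or myosin. In C. elegans, GSP-1 and GSP-2 work in dividing cells throughout the animal, and GSP-2 opposes the Aurora B kinase AIR-2 on meiotic chromosomes. GSP-3 and GSP-4 are close copies of each other made in sperm-forming cells. They are needed for sperm meiosis and for the movement of the major sperm protein (MSP) cytoskeleton. A hermaphrodite gonad makes sperm first and stores them before it switches to oocytes.

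The annotated gene models set the pairs apart. In the build WBcel235, gsp-1 (WBGene00001747) lies on the + strand of chromosome V from 10682422 to 10686537, with 5 exons that hold 1785 bases and encode 329 residues. The gene gsp-2 (WBGene00001748) lies on the + strand of chromosome III from 7336587 to 7338765, with 7 exons, 1614 exon bases and 333 residues. The sperm copies are both on the − strand of chromosome I, gsp-3 (WBGene00021113) from 4709259 to 4710712 and gsp-4 (WBGene00020187) from 3838237 to 3839673. Each sperm copy has 4 exons in its first listed transcript and encodes 305 residues, with 1115 exon bases for gsp-3 and 1158 for gsp-4. Their coding pieces have the same lengths, 456, 393 and 66 bases, and both open with a non-coding exon of 81 bases in gsp-3 and 71 in gsp-4. Exons of 132 and 231 bases follow the opening exon in both gsp-1 and gsp-2, after which gsp-2 is split into more exons. No other protein-coding gene overlapped any of the 4, and a snoRNA gene lay within gsp-2 on the same strand.

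**Figure D1:**
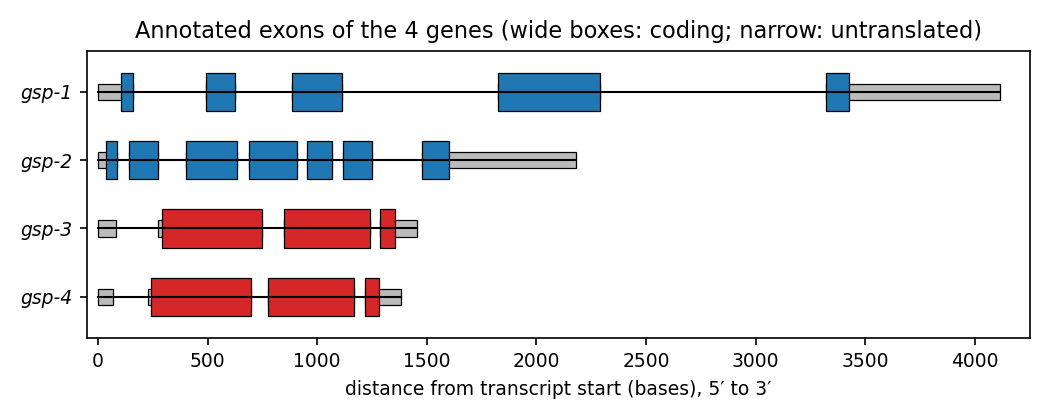
Annotated exons of gsp-1, gsp-2, gsp-3 and gsp-4 against distance from the transcript start in bases, with coding parts as wide boxes and untranslated parts as narrow boxes. The sperm copies share the same 3 coding pieces of 456, 393 and 66 bases, while gsp-1 and gsp-2 have 5 and 7 exons.

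Between 14550417 and 24389531 reads per library fell on genes, of which 41.8% to 79.0% were ribosomal RNA, leaving 5109782 to 13266433 other reads. The sin-3 libraries held 0, 2 and 1 reads of sin-3 against 606, 616 and 1274 in wt. Reads of hda-3 remained in the hda-3 libraries, at 13.9 and 18.7 CPM (reads scaled to a common library size) against 28.1, 28.5 and 39.1 in wt, and the labels do not say which part of the gene the allele removes. All 15 germ line markers, such as pgl-1 and glh-1, had reads in every library. Reads placed at more than 1 site were set aside by the counter. As a share of all reads it tallied, on genes or not, they were 3.49% to 4.55% in wt. In sin-3 they were 3.03% to 3.84%, and in hda-3 4.70% to 5.57%. How many of these came from gsp-3 or gsp-4, whose sequences are close, was not tested, so their levels, their ratio to the general copies and the split of reads between them are uncertain. Reads lost in this way lower the level of the gene they came from.

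The general copies overlapped between genotypes in CPM on library sizes scaled by the trimmed mean of M-values (TMM), the scale of the levels given here. Reads of gsp-1 came to 38.9, 57.7 and 48.6 CPM in wt, to 47.1, 37.5 and 67.5 CPM in sin-3, and to 51.0 and 52.9 CPM in hda-3. The lowest and the highest of these were both sin-3 libraries, and the groups overlapped. The gene gsp-2 stood at 37.8, 58.8 and 50.8 CPM in wt, at 39.1, 43.2 and 41.95 CPM in sin-3 libraries, and at 42.6 and 47.6 CPM in hda-3. Both mutants lay within the wt range for gsp-2. Group means for gsp-1 were 48.4 ± 9.39 CPM in wt (SD, n = 3), 50.7 ± 15.3 in sin-3 (SD, n = 3) and 51.9 ± 1.39 in hda-3 (SD, n = 2). Those for gsp-2 were 49.1 ± 10.6, 41.4 ± 2.10 and 45.1 ± 3.57 CPM.

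The overlap of hda-3 with wt rests on the TMM factors, which were 0.548 to 0.960 in wt, 0.424 to 2.30 in sin-3 and 1.60 to 1.62 in hda-3. In CPM of the reads outside ribosomal RNA, with no such factor, gsp-1 was at 57.9, 101.1 and 89.2 in wt. On this scale gsp-1 was at 95.3, 107.4 and 266.3 in the sin-3 libraries and at 167.8 and 163.6 in hda-3. Values of gsp-2 without the factor were 56.3, 103.1 and 93.3 in wt, 79.1, 123.7 and 165.6 in the sin-3 libraries, and 140.3 and 147.3 in hda-3. Without TMM factors both general copies thus lay above wt in hda-3.

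The sperm copies had few reads in wt and in sin-3 replicate 3, more in sin-3 replicates 4 and 5, and by far the most in hda-3. In wt, gsp-3 was at 2.11, 1.31 and 0.487 CPM, from 25, 14 and 11 reads. In sin-3 it was at 0.0968, 4.82 and 1.49 CPM, from 1, 124 and 78 reads. In hda-3 it reached 157.5 and 136.9 CPM, from 6089 and 3190 reads. The hda-3 libraries lay above all others, while the sin-3 libraries held both the lowest and the highest of the remaining 6 values.

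The gene gsp-4 followed the same order of genotypes. Its level was 1.18, 0.280 and 0.310 CPM in wt, from 14, 3 and 7 reads. The sin-3 libraries gave 0.194, 3.58 and 3.57 CPM, from 2, 92 and 187 reads. The hda-3 libraries gave 118.5 and 88.0 CPM, from 4582 and 2050 reads. Here sin-3 replicates 4 and 5 lay above every wt library and sin-3 replicate 3 lay below them all. The mean of gsp-3 was 1.30 ± 0.813 CPM in wt (SD, n = 3), 2.13 ± 2.43 in sin-3 (SD, n = 3) and 147.2 ± 14.5 in hda-3 (SD, n = 2), and that of gsp-4 was 0.591 ± 0.513, 2.45 ± 1.95 and 103.3 ± 21.6 CPM. In pooled gonads, a change in the number of sperm-forming cells and a change in RNA per cell cannot be told apart.

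**Figure D2:**
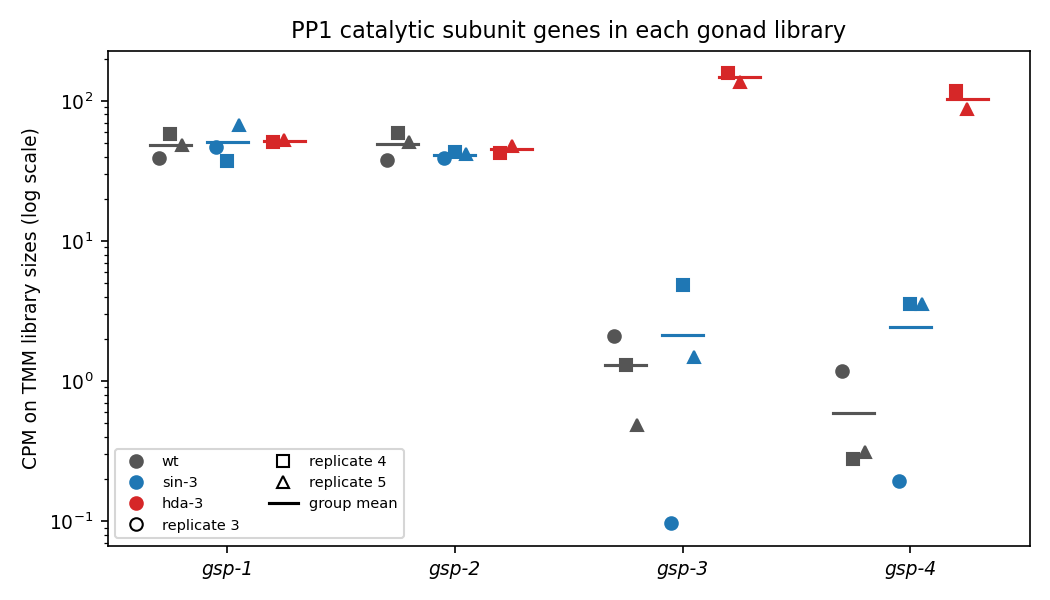
CPM of each gene in each of the 8 libraries on a log axis, with colour for genotype, marker shape for replicate number and a bar for the group mean. The hda-3 libraries stand at 88.0 to 157.5 CPM for the sperm copies, above every other library, while the general copies overlap between 37.5 and 67.5 CPM.

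Each mutant was then compared with wt, and the mutants with each other, in 1 edgeR quasi-likelihood fit over all 8 libraries, with p-values adjusted by the Benjamini-Hochberg method over all 10302 genes tested and calls made at an adjusted p under 0.05. In hda-3 against wt, gsp-3 rose by 6.92 on the log2 scale (SE 0.98, 95% interval 4.62 to 9.21, edgeR adjusted p = 0.00195), a 113-fold ratio of mean CPM. In the same comparison gsp-4 rose by 7.53 (SE 0.91, 95% interval 5.39 to 9.66, edgeR adjusted p = 8.65e-04), a 175-fold ratio. With the replicate number added to the fit as a block, gsp-3 was not called (log2 6.81, edgeR adjusted p = 0.0532). In the fit without that block, both sperm copies were thus called higher and neither general copy was called. Over all genes tested, 13.5% were called higher, 4.86% lower and 18.4% in either direction, and 25.4% lay above and 26.7% below wt without overlap. By size of log2 fold change gsp-4 ranked 250 and gsp-3 ranked 425 among the 10302 genes. The filter asked for about 0.450 CPM in 2 libraries, which gsp-3 met in all 3 wt libraries and gsp-4 in 1, so gsp-4 entered the test through the mutant libraries.

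For the general copies the same comparison gave intervals around 0. The log2 fold change in hda-3 against wt was 0.10 for gsp-1 (SE 0.26, 95% interval −0.47 to 0.67, edgeR adjusted p = 0.825) and −0.12 for gsp-2 (SE 0.22, 95% interval −0.59 to 0.35, edgeR adjusted p = 0.738). The sign of the gsp-2 value changed with the scaling, to 0.02 with the size factors of DESeq2 in edgeR (RLE) and 0.07 with TMM factors from genes outside the X chromosome. Those scalings moved the median of all genes from −0.02 to 0.12 and 0.17, and the split of calls from 1390 higher and 501 lower to 1469 and 238, and to 1499 and 209. Leaving out hda-3 replicate 4 lowered the number of genes called from 1891 to 1048.

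None of the 4 genes was called in sin-3 against wt, where 2.68% of all genes were called higher, 4.92% lower and 7.6% in either direction, and where 14.7% lay above and 14.4% below wt without overlap. Before adjustment 1 of the 4 had a p under 0.05, and neither DESeq2 nor limma voom called any. That gene was gsp-4, with a log2 fold change of 2.25 (SE 0.86, 95% interval 0.24 to 4.27, edgeR adjusted p = 0.150). Sin-3 replicate 3, the library with 2 reads of gsp-4, had the highest share of ribosomal RNA (79.0%), the fewest other reads (5109782) and the lowest TMM factor (0.424), whose part in the result was not tested. Without it the value was 2.68 (SE 0.42, edgeR adjusted p = 0.00321), which passed the threshold. For gsp-3 the log2 value was 0.91 (SE 0.90, 95% interval −1.20 to 3.02, edgeR adjusted p = 0.558), and it was −0.24 without sin-3 replicate 4. For gsp-1 it was 0.07 (95% interval −0.44 to 0.58, edgeR adjusted p = 0.876), and for gsp-2 it was −0.25 (95% interval −0.67 to 0.18, edgeR adjusted p = 0.439). Leaving out wt replicate 3 or sin-3 replicate 5 turned the gsp-1 value to −0.06 or −0.17. The number of genes called in this comparison, 783, moved widely with single libraries. It was 222 when wt replicate 3 was left out, 388 for wt replicate 4, 209 for wt replicate 5, 487 and 460 for hda-3 replicates 4 and 5, 1453 for sin-3 replicate 3 and 200 for sin-3 replicate 4.

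The direct comparison separated the mutants for the sperm copies. In hda-3 against sin-3, gsp-3 was higher by 6.005 on the log2 scale (95% interval 3.88 to 8.13, edgeR adjusted p = 0.00281) and gsp-4 by 5.27 (95% interval 3.47 to 7.07, edgeR adjusted p = 0.0024). Without hda-3 replicate 4, gsp-3 gave 5.95 with an adjusted p of 0.0506 in edgeR and was no longer called. The general copies differed by 0.03 for gsp-1 (95% interval −0.54 to 0.60, edgeR adjusted p = 0.963) and 0.12 for gsp-2 (95% interval −0.34 to 0.59, edgeR adjusted p = 0.796). Of all genes, 12.7% were called higher in hda-3, 2.59% lower and 15.3% in either direction, and 22.3% lay above and 17.5% below sin-3 without overlap.

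**Figure D3:**
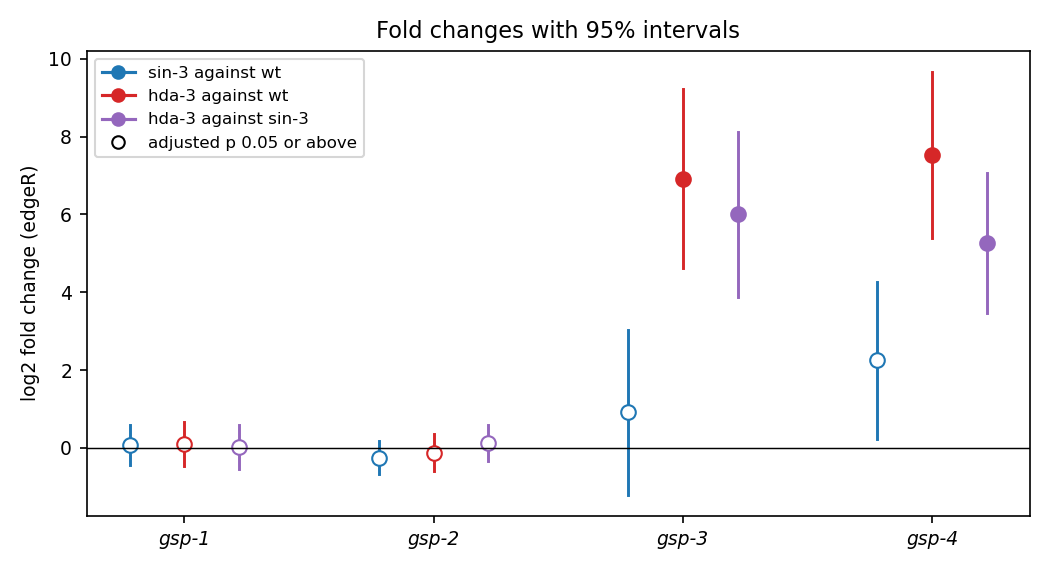
Log2 fold change of each gene in the 3 comparisons with its 95% interval, filled where the edgeR adjusted p is under 0.05. The intervals of the general copies all cross 0, and those of gsp-3 and gsp-4 in hda-3 lie at or above 3.47.

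Levels of different genes can be set side by side only per length, as CPM per kilobase of annotated exon. In wt the order was gsp-2 at 30.4 ± 6.57 (SD, n = 3), gsp-1 at 27.1 ± 5.26, gsp-3 at 1.17 ± 0.729 and gsp-4 at 0.510 ± 0.443. Neighbours in this order overlapped, except that both general copies lay above both sperm copies in every wt library. In sin-3 the values per kilobase were 28.4 ± 8.57 for gsp-1, 25.7 ± 1.30 for gsp-2, 2.11 ± 1.68 for gsp-4 and 1.91 ± 2.18 for gsp-3 (SD, n = 3), again with overlap within each pair. The order was turned over in hda-3, where gsp-3 led at 132.0 ± 13.04 and gsp-4 followed at 89.2 ± 18.6 (SD, n = 2). There the lowest gsp-3 library, at 122.8, was above the highest gsp-4 library, at 102.3. The general copies stood below them at 29.1 ± 0.781 for gsp-1 and 27.96 ± 2.21 for gsp-2, and overlapped.

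The balance of sperm to general copies was read within each library, which takes library size and scaling out of the ratio. Of the reads on the 4 genes, the sperm copies took 4.12%, 1.34% and 0.795% in wt libraries, 0.336%, 9.42% and 4.42% in sin-3 libraries, and 74.7% and 69.1% in hda-3 libraries. Only the hda-3 libraries held more reads of the sperm copies than of the general copies. As log2 of sperm-copy reads over general-copy reads, the mean was −5.90 ± 1.24 in wt (SD, n = 3), −5.30 ± 2.59 in sin-3 (SD, n = 3) and 1.361 ± 0.28 in hda-3 (SD, n = 2). The hda-3 mean lay 7.26 above that of wt. The sin-3 mean lay 0.60 above it, less than the SD of either group, and was 0.42 below it without sin-3 replicate 4 and 2.05 above it without sin-3 replicate 3.

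Within the sperm pair, gsp-3 supplied 57.1% of reads (exact Clopper-Pearson 95% interval 56.1% to 58.0%) in hda-3 replicate 4 and 60.9% (59.5% to 62.2%) in hda-3 replicate 5. In wt its share was 64.1% (47.2% to 78.8%), 82.4% (56.6% to 96.2%) and 61.1% (35.7% to 82.7%). The share of gsp-3 in sin-3 was 33.3% (0.840% to 90.6%), 57.4% (50.5% to 64.1%) and 29.4% (24.02% to 35.3%). The interval of sin-3 replicate 5 overlapped that of sin-3 replicate 3 and of no other library. These intervals cover counting error only, since reads of amplified cDNA are not independent molecules.

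Within the general pair, gsp-1 supplied 50.7%, 49.5% and 48.9% of reads in wt, 54.5% and 52.6% in hda-3, and 54.7%, 46.5% and 61.7% in sin-3. Sin-3 replicate 5 again stood apart, with an exact 95% interval of 60.4% to 62.9%.

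**Figure D4:**
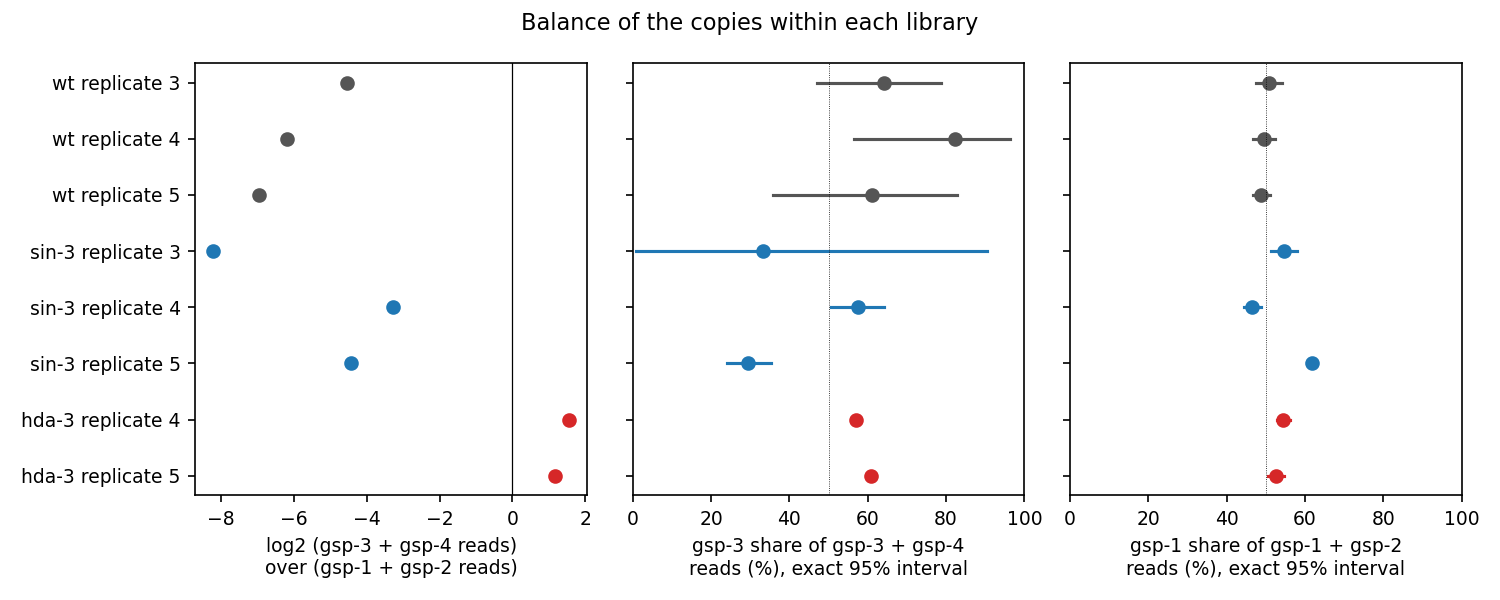
Balance of the copies in each library as log2 of sperm-copy over general-copy reads (left), the gsp-3 share of sperm-copy reads (middle) and the gsp-1 share of general-copy reads (right), with exact 95% intervals for the shares. The log2 ratio is above 0 in the hda-3 libraries, at 1.56 and 1.16, and below 0 in the other 6.

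Most sperm markers were higher in hda-3, as the sperm copies were. Of 21 listed sperm markers 19 were found, and their summed level ran from 5.002 to 8.45 CPM in wt, 5.22 to 22.97 in sin-3 and 457 to 560 in hda-3. In the hda-3 libraries msd-2, an MSP-domain protein gene, was the only one of the 19 at 0 reads. Of the 16 sperm markers tested, 13 were called higher in hda-3 than in wt and none lower, where 13.5% of all genes were called higher and 4.86% lower, with a median log2 fold change of 6.60 against −0.02 over all genes tested. Of the 31 msp genes 29 were tested, and all 29 were higher in hda-3, with a median of 6.82. In sin-3 against wt edgeR called none of either list, with medians of 1.27 and 0.76 against 0.12 over all genes. Of the sperm markers 5 had an unadjusted p under 0.05 there, DESeq2 called 1 and limma voom 0, and of the msp genes all 3 counts were 0. Without sin-3 replicate 3 edgeR called 5 sperm markers, and calls over all genes rose from 783 to 1453. Part of both lists entered the test only through the hda-3 libraries, 4 of the 16 sperm markers and 4 of the 29 msp genes. Of the rest, 11 of 12 sperm markers and 25 of 25 msp genes were called higher in hda-3, with medians of 6.69 and 6.76. The share of sperm cells in each library was not measured, and its part in the gsp-3 and gsp-4 values was not tested.

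Other cell types differed as well. The 15 germ line markers summed to 1722 to 2191 CPM in wt, 1354 to 2057 in sin-3 and 1201 to 1410 in hda-3. On this scale hda-3 lay below wt. TMM factors were higher in hda-3 (1.60 to 1.62) than in wt (0.548 to 0.960), and the sums without them were not compared. The median log2 fold change of these markers in hda-3 against wt was −0.45. Of the list pgl-3 was called lower (log2 −1.08, edgeR adjusted p = 0.0323), beside 4.86% of all genes. DESeq2 called 0 of these markers there and limma voom 1. For sin-3 against wt edgeR, DESeq2 and limma voom called 0 germ line markers, with 3 at an unadjusted edgeR p under 0.05. In hda-3 no germ line marker was called without wt replicate 3, 4 or 5, hda-3 replicate 4 or 5, or sin-3 replicate 4. The summed level of 15 oocyte markers was 10501 to 20701 CPM in wt, 5505 to 18411 in sin-3 and 5161 to 5164 in hda-3. Of these, perm-2 (log2 −4.22, edgeR adjusted p = 0.00755) and perm-4 (−4.12, 0.00532) were called lower in hda-3 than in wt. Over all genes 4.86% were called lower, and the median log2 fold change of the list was −0.84. Mean levels of perm-2 and perm-4 were 2842 and 3364 CPM in wt, and 152.8 and 193.3 CPM in hda-3. Fewer oocyte markers were called lower with hda-3 replicate 4 or 5 left out, and 4 with sin-3 replicate 3 left out. The egg-activation gene egg-3 was called higher in sin-3 than in wt (log2 0.73, edgeR adjusted p = 0.0456), but leaving out any 1 library other than sin-3 replicate 3 left no oocyte marker called higher there. Without sin-3 replicate 3 there were 3 called lower, and 1 without sin-3 replicate 5. Summed intestine markers, 12 genes, were at 6.46 to 40.6 CPM in wt, 31.4 to 92.0 in sin-3 and 146.8 to 266.3 in hda-3, where 7 of 11 tested were called higher, beside 13.5% of all genes. Without hda-3 replicate 4 the count was 1, and 4 without wt replicate 4. The lysozyme gene lys-7 was called higher in sin-3 than in wt (log2 5.15, edgeR adjusted p = 0.0145), from 2 reads over the wt libraries, but no intestine marker was called there without wt replicate 4 or 5, and 2 were without wt replicate 3 or sin-3 replicate 3. Summed markers of the somatic gonad and spermatheca, 10 genes, were at 27.1 to 96.9 CPM in wt, 53.9 to 79.6 in sin-3 and 15.1 to 19.3 in hda-3. Of the 7 tested, nmy-1 was called higher in sin-3 (log2 2.14, edgeR adjusted p = 0.00306) and in hda-3 (1.16, 0.0285), and inx-8 (−3.10, 0.00606) and inx-9 (−2.18, 0.0198) lower in hda-3, all against wt. The largest part of the sum in wt is inx-8, at a mean of 45.03 CPM there, 31.4 CPM in sin-3 and 5.23 CPM in hda-3, while the median log2 fold change was 1.86 in sin-3 and −0.24 in hda-3. The hda-3 calls of this list fell from 3 to 0 with hda-3 replicate 4 or 5 left out. With wt replicate 5 left out none was called higher, and with wt replicate 4 left out 1 was called lower. For sin-3 the list had 2 calls when wt replicate 4 was dropped and 3 when sin-3 replicate 3 was.

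The remaining lists hold markers of muscle, neuron and epidermis. Summed muscle markers were at 29.6 to 52.6 CPM in wt, 63.3 to 91.6 in sin-3, and 124.2 and 29.7 for replicates 4 and 5 of hda-3. Of 9 muscle markers tested, unc-22 was called lower in hda-3 than in wt (log2 −2.40, edgeR adjusted p = 0.0411), and no muscle marker was called lower when wt replicate 3 or 4, hda-3 replicate 4 or sin-3 replicate 4 was dropped, nor by limma voom. Dropping hda-3 replicate 5 gave 2 muscle markers called higher, and dropping sin-3 replicate 5 gave 1. Over all genes 13.5% were called higher and 4.86% lower in hda-3 against wt with all libraries. Between sin-3 and wt edgeR and limma voom called 0 muscle markers and DESeq2 2, with 4 at an unadjusted edgeR p under 0.05. Without sin-3 replicate 3 edgeR called 1 muscle marker there. Summed neuron markers were at 34.8 to 46.5 CPM in wt, 25.7 to 33.8 in sin-3 and 26.4 to 32.05 in hda-3. That sum is mostly snb-1, at a mean of 39.1 CPM in wt and 25.2 CPM in each mutant, while the median log2 fold change of the list against wt was 0.30 in sin-3 and −0.55 in hda-3. Of 6 neuron markers tested edgeR and limma voom called 0 against wt in either mutant, and DESeq2 called 1 in hda-3. At an unadjusted edgeR p under 0.05 there was 1 in sin-3 and 2 in hda-3. Epidermis markers summed to 54.9 to 70.6 CPM in wt, 62.4 to 121.3 in sin-3 and 80.7 to 113.7 in hda-3, and of 4 tested none was called by edgeR, DESeq2 or limma voom, with 0 at an unadjusted edgeR p under 0.05. Leaving out sin-3 replicate 3 gave 1 neuron call in sin-3, and leaving out sin-3 replicate 5 gave 1 neuron and 1 epidermis call in hda-3. No gene of the germ line, oocyte or muscle lists was at 0 in any library, and at most 2 genes of the intestine or somatic gonad lists were. Up to 4 of the 10 neuron markers and up to 5 of the 10 epidermis markers were at 0. The part of these cells in the gsp values was not tested.

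Genes that direct PP1 were read from a list of 8 regulatory and docking subunits, all tested. It holds the inhibitor-2 homologue szy-2, the regulator sds-22, the myosin phosphatase targeting subunit mel-11, the meiotic chromosome protein lab-1, the kinetochore docking proteins knl-1 and mel-28, the ASPP homologue ape-1 and the leucine-rich repeat protein soc-2. The gene sds-22 fell in sin-3, from 71.7 ± 11.4 CPM in wt (SD, n = 3) to 27.2 ± 1.43 (SD, n = 3). Its log2 fold change was −1.40 (SE 0.18, edgeR adjusted p = 0.00216), and it was called under every alternative run. In hda-3 it was at 43.3 ± 0.605 CPM (SD, n = 2), lower by 0.73 on the log2 scale than in wt (edgeR adjusted p = 0.0262). That call ended under RLE (adjusted p = 0.0633), TMM outside X (0.0914), no filter (0.145), DESeq2 (0.156) and with only the groups compared in the fit (0.0574). It also ended without wt replicate 3 (0.0785) or 5 (0.0725), hda-3 replicate 4 (0.243) or 5 (0.159), or sin-3 replicate 4 (0.125), all in edgeR. The direct difference of hda-3 above sin-3 was 0.67 (edgeR adjusted p = 0.0365), and was not called without hda-3 replicate 4 (0.166) or 5 (0.208) or sin-3 replicate 3 (0.0982), nor with no filter (0.0938) or limma voom (0.0516). The other 7 regulators were not called in any comparison with all libraries. Without sin-3 replicate 5 the list had 2 calls in sin-3 against wt and 3 in hda-3 against sin-3. Over all genes that fit called 809 and 2198. Without sin-3 replicate 3 the list had 2 calls in hda-3 against wt, and over all genes 2194 were called. With all libraries 783 genes (7.6%) were called in sin-3 against wt, 1891 (18.4%) in hda-3 against wt and 1575 (15.3%) in hda-3 against sin-3. The median log2 fold change of the list was −0.15 in each mutant against wt, beside 0.12 in sin-3 and −0.02 in hda-3 over all genes.

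The list of 12 genes around PP1 on meiotic chromosomes holds the Aurora B kinase air-2 and its partners, the kinase hasp-1, and the cohesins and HORMA-domain proteins of the chromosome axis. In sin-3 against wt edgeR, DESeq2 and limma voom called 0 of them, and 1 had an unadjusted edgeR p under 0.05. This was hasp-1, with a log2 fold change of 0.64 (edgeR adjusted p = 0.154). In hda-3, the axis gene htp-2 was lower at 35.1 ± 3.85 CPM (SD, n = 2) than in wt at 74.0 ± 4.41 (SD, n = 3). Its log2 fold change was −1.07 (edgeR adjusted p = 0.0246), and between 0.0522 and 0.232 without wt replicate 3, 4 or 5, hda-3 replicate 4 or 5, or sin-3 replicate 4, each of which ended the call, as did RLE (0.0533), TMM outside X (0.0547) and DESeq2 (0.0647). Against sin-3 it was −1.42 (edgeR adjusted p = 0.00529), not called without hda-3 replicate 4 (0.0781). Without sin-3 replicate 5 the list had 1 call in sin-3 against wt and 2 in each comparison of hda-3. Over all genes that fit called 809 in sin-3 against wt, 2673 in hda-3 against wt and 2198 in hda-3 against sin-3. With all libraries these counts were 783, 1891 and 1575, or 7.6%, 18.4% and 15.3% of the genes tested.

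Catalytic and regulatory subunits of the related phosphatases PP2A, PP4, PP5, PP6 and calcineurin made a list of 15, all tested. In sin-3 the PP2A regulatory subunit gene pptr-2 fell from 152.4 ± 16.1 to 72.5 ± 4.04 CPM (SD, n = 3 each), a log2 change of −1.07 (edgeR adjusted p = 0.00827), with an adjusted p of 0.0613 without sin-3 replicate 4. The PP4 catalytic subunit gene pph-4.2 rose in sin-3 from 16.9 ± 1.65 to 30.4 ± 6.68 CPM, a log2 change of 0.84 (edgeR adjusted p = 0.0400). That call ended without wt replicate 3, 4 or 5, hda-3 replicate 4 or 5, or sin-3 replicate 3, at adjusted p from 0.0545 to 0.116, and under limma voom (0.0635). In hda-3, pptr-2 was at 92.5 ± 1.64 CPM (SD, n = 2), a log2 change of −0.72 against wt (edgeR adjusted p = 0.0353). This call ended without wt replicate 3 or 5, hda-3 replicate 4 or 5, or sin-3 replicate 4, at adjusted p from 0.0886 to 0.308, and under RLE (0.0833), TMM outside X (0.107), no filter (0.121), DESeq2 (0.114) and with only the groups compared (0.0561). In hda-3 against sin-3 edgeR, DESeq2 and limma voom called 0 of the 15, and 2 had an unadjusted edgeR p under 0.05, of which pph-4.2 had the smallest p (log2 −0.60, edgeR adjusted p = 0.139). Without sin-3 replicate 5 the list had 3 calls in hda-3 against wt, where calls over all genes rose from 1891 to 2673. With all libraries 7.6% of all genes were called in sin-3 against wt, 18.4% in hda-3 against wt and 15.3% in hda-3 against sin-3. The medians of this list were 0.05 in sin-3 and 0.07 in hda-3, beside 0.12 and −0.02 over all genes.

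Genes of sperm signalling were read next. The list of 12 held kinases of sperm and genes of sperm activation, of which 11 were tested. In hda-3 against wt 8 were called higher and none lower, where 13.5% of all genes were called higher and 4.86% lower. Since 6 of the 11 had passed the filter only through the hda-3 libraries, the filter itself favours a higher value in hda-3 for these. Of the other 5, 3 were called higher and none lower, with a median log2 fold change of 1.87. The GSK3-family kinase gene gskl-2 rose from 0.145 to 20.5 mean CPM (log2 6.87, edgeR adjusted p = 3.10e-05), and spe-46 from 0.638 to 23.7 (log2 5.28, edgeR adjusted p = 3.10e-05). The casein kinase I gene spe-6 rose from 2.28 to 8.54 mean CPM (log2 1.87, edgeR adjusted p = 0.00671), with an adjusted p of 0.0624 without hda-3 replicate 5. The transporter gene snf-10, needed for sperm activation, had 6 reads over the wt libraries and 115 over the hda-3 libraries.

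The other 4 genes called had 1 to 3 reads over the wt libraries. The tyrosine kinase gene spe-8 had 1 read in wt and 320 in hda-3. Its partners in sperm activation, spe-12 and spe-27, had 2 and 1 reads in wt against 125 and 68 in hda-3. The presenilin gene spe-4 had 3 in wt and 192 in hda-3. Without hda-3 replicate 5 the list had 5 calls in place of 8, and snf-10 and spe-27 were also not called without wt replicate 5 (edgeR adjusted p = 0.0522 and 0.0588). In sin-3 against wt edgeR and limma voom called 0 of the 11 and DESeq2 called 1. At an unadjusted edgeR p under 0.05 there was 1, gskl-2 (log2 1.82, edgeR adjusted p = 0.0745), and without sin-3 replicate 3 the list had 1 call. In hda-3 against sin-3, 9 were called higher, the same 8 and gskl-1 (log2 2.64, edgeR adjusted p = 0.0261), where 12.7% of all genes were. All of the 6 that passed the filter only through hda-3 are among these 9, gskl-1 included, and of the other 5 again 3 were called higher. The gskl-1 call ended without hda-3 replicate 4 or 5 or sin-3 replicate 3, at adjusted p from 0.054 to 0.229.

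**Figure D5:**
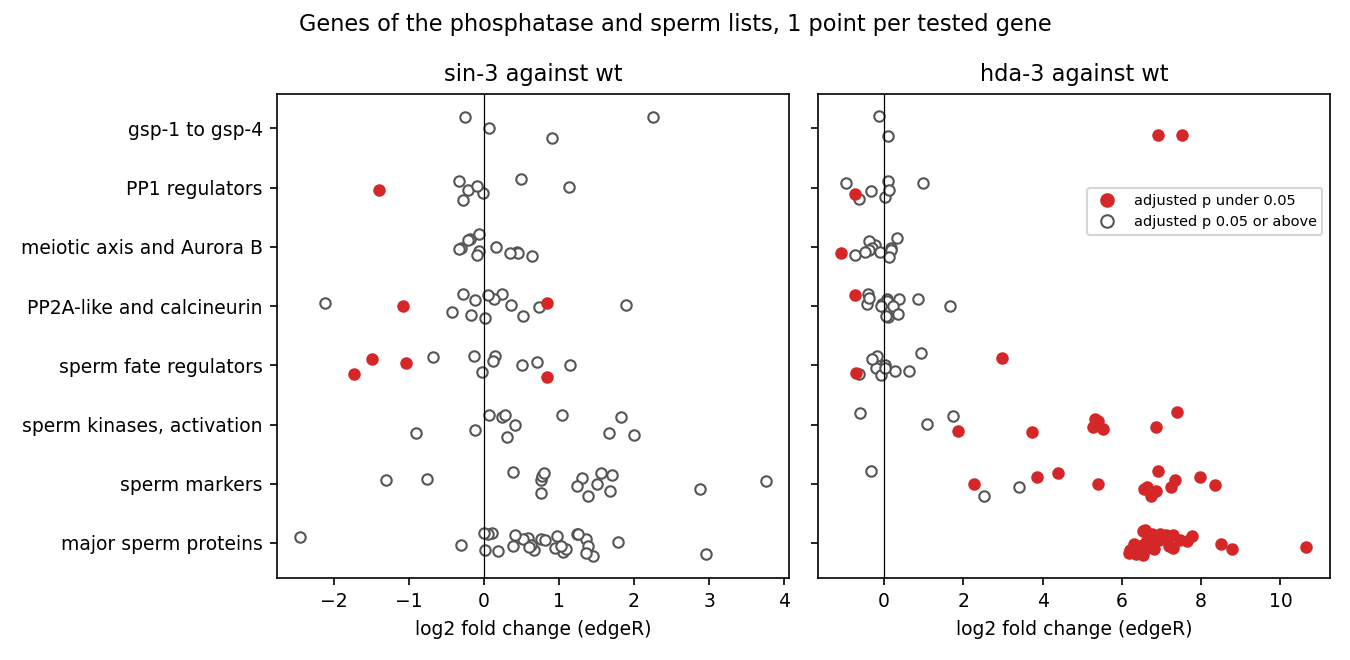
Log2 fold change of every tested gene of the phosphatase and sperm lists in sin-3 (left) and hda-3 (right) against wt, 1 point per gene, filled where the edgeR adjusted p is under 0.05. In hda-3 the called sperm copies, at 6.92 and 7.53, stand among the sperm lists, and the general copies, at 0.10 and −0.12, among the phosphatase lists.

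A list of 12 genes held regulators of the choice between sperm and oocyte fate and of sperm formation, all of them tested. Of these, edgeR called 4 in sin-3 against wt, where 7.6% of all genes were. It called 2 in hda-3 against wt (18.4% of all genes) and 3 in hda-3 against sin-3 (15.3%). In hda-3 against wt fog-3, which promotes sperm fate, rose from 0.368 ± 0.107 CPM (SD, n = 3) to 3.01 ± 0.794 (SD, n = 2), a log2 change of 2.97 (edgeR adjusted p = 0.00267). In the same comparison the translational repressor gld-1 was lower by 0.71 (edgeR adjusted p = 0.0456). That call ended without wt replicate 3, 4 or 5, hda-3 replicate 4 or 5, or sin-3 replicate 4, at adjusted p from 0.0629 to 0.376, and under RLE (0.100), TMM outside X (0.142), no filter (0.198), DESeq2 (0.258), limma voom (0.0524) and with only the groups compared (0.0579). In sin-3 against wt, fog-1 was higher by 0.84 and fem-2, spe-44 and cpb-1 were lower, at log2 values of −1.03, −1.49 and −1.73. The fog-1 call ended without wt replicate 3 (0.0528), 4 (0.0576) or 5 (0.0799) or sin-3 replicate 4 (0.0732), and the fem-2 call without wt replicate 3 (0.0538), as edgeR adjusted p. Likewise spe-44 was not called without wt replicate 5 (0.0561) or sin-3 replicate 4 (0.066), nor cpb-1 without wt replicate 4 (0.0951) or 5 (0.0974) or sin-3 replicate 4 (0.107). In hda-3 against sin-3, fog-3 was higher by 2.26, spe-44 by 1.42 and cpb-1 by 1.43 (edgeR adjusted p = 0.00969, 0.00562 and 0.0403), and none of these was called without hda-3 replicate 4. The cpb-1 call also ended without wt replicate 4 or 5, hda-3 replicate 5, or sin-3 replicate 3 or 4, or with only the groups compared, at adjusted p from 0.0642 to 0.117.

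The genes whose profiles over the 8 libraries were most like each copy differed between the pairs. Likeness was the root-mean-square difference of log2 CPM after each profile was centred on its own mean, so 0 is an identical profile. The nearest 5 to gsp-3 were all msp genes, msp-19 at 0.34, then msp-53, msp-40, msp-3 and msp-142 at 0.39, where the median over all genes was 3.33. The nearest to gsp-4 were C08F11.10 at 0.21, ttbk-8.2, C17H12.5, F21H7.5 and ttbk-4 at 0.34, against a median of 3.26. Between gsp-3 and gsp-4 themselves the difference was 0.88, which placed gsp-4 at rank 110 for gsp-3 and gsp-3 at rank 185 for gsp-4.

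Nearest to gsp-1 were mvk-1 at 0.08, sel-10, sftb-1, F46B6.5 and flcn-1 at 0.11, with a median of 0.63 over all genes. Nearest to gsp-2 were hsr-9 at 0.06, coa-4, npp-10, cdc-6 and prp-9 at 0.10, with a median of 0.60. Between gsp-1 and gsp-2 the difference was 0.26, which placed gsp-2 at rank 681 for gsp-1 and gsp-1 at rank 989 for gsp-2. These points share 8 libraries and their depths, and the order is a description.

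The authors' deposited table gives the same genes from their own test. For hda-3 against wt, the authors' deposited table lists log2 fold changes of 7.71 for gsp-3 (adjusted p = 8.87e-80), 8.61 for gsp-4 (adjusted p = 1.51e-54), 0.14 for gsp-1 (adjusted p = 0.838) and −0.11 for gsp-2 (adjusted p = 0.884). For sin-3 against wt, the authors' deposited table lists 2.05 for gsp-4 (adjusted p = 0.0988), 0.48 for gsp-3 (adjusted p = 0.801), 0.12 for gsp-1 (adjusted p = 0.872) and −0.20 for gsp-2 (adjusted p = 0.712).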

How the data were processed

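The authors deposited, per library, whole-number counts of reads per gene, and per mutant a comparison table. Per the file headers, that table holds a mean normalized signal, a log2 fold change with its SE, a test score, and p-values before and after adjustment. Per the labels, gonads were amplified by Smart-seq2 (SMART-Seq v4, Nextera XT) and read as 50 single-end bases. The authors ran HTSeq 0.7.2, STAR 2.7.3a, fastp 0.20.1 and DESeq2 1.36.0, per the submitters' processing notes. No build, annotation, setting or strand option of that step is given in the sources used here. Gene names and positions come from the Ensembl annotation of WBcel235, which held 46923 of the 46934 gene IDs. Lines of the counter that name no gene were left out. Reads with no feature (1.06% to 2.27% of all reads tallied, on genes or not) and ambiguous reads (0.673% to 1.55%) were among them.

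Counts were fitted in R 4.3.3 with edgeR 4.0.16 (robust quasi-likelihood, TMM, default filter on low counts of 10 with a total of 15), and the procedure was tested on simulated data. limma 3.58.1 and DESeq2 1.42.0 served as alternatives. TMM factors ran from 0.424 to 2.30, both extremes being sin-3 libraries. The labels state 3 independent biological replicates per strain, and 2 libraries of hda-3 are analysed here. No libraries were duplicates, with a chi-square per degree of freedom of 27.3 or more between replicates. Summed and per-kilobase values are descriptions with no test. Named genes were the 4 phosphatase genes, each called member of the phosphatase, meiotic and sperm lists (or the one with the smallest p where none was called), and the 5 nearest profiles of each gene with a prior count of 2. The 4 genes and the lists were chosen with earlier results of these data known. Of the marker lists, summed levels and the counts called against wt are given.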

Additional observations from a re-analysis of the deposited data

How the results depend on the processing

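Over 12 values (4 genes in 3 comparisons) and 201 alternatives, 184 kept the direction and the side of the threshold. In hda-3 against wt, gsp-4 was called in every alternative, and gsp-3 in all but the fit with a replicate block (log2 6.81, edgeR adjusted p = 0.0532). Whether the numbers pair the libraries is not settled. Same-numbered libraries correlated at −0.20 to 0.29 over 7 pairs, and 3 of 8 correlated best with their own number. These values cannot decide it, since the pairs are few and the hda-3 libraries gave mirrored values. With wt replicate 5 the correlation was −0.29 for hda-3 replicate 4 and 0.29 for hda-3 replicate 5. The block also turned gsp-1 in hda-3 against sin-3 to −0.0431 and changed no other call of the 4 genes. Among the named genes of the lists it ended the calls of htp-2 (edgeR adjusted p = 0.0575), pptr-2 (0.0626), gld-1 (0.0598), snf-10 (0.0625) and spe-27 (0.0712) in hda-3 against wt, and of sds-22 (0.0503) and gskl-1 (0.0697) in hda-3 against sin-3. The sign of gsp-2 in hda-3 against wt turned to 0.0195 with RLE, 0.0725 with TMM outside X, 0.0423 with DESeq2 and 0.0490 with only these groups fitted. The cause was not tested.

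Leaving out 1 library at a time gave these log2 ranges. In sin-3 against wt they were −0.17 to 0.27 for gsp-1, −0.24 to 1.49 for gsp-3 and 1.84 to 3.14 for gsp-4. In hda-3 against wt they were −0.0323 to 0.28 for gsp-1 and −0.28 to 0.0550 for gsp-2. In hda-3 against sin-3 they were −0.0162 to 0.45 for gsp-1 and 5.58 to 7.32 for gsp-3. The log2 ratio of sperm to general copies, sin-3 minus wt, ran from −0.42 to 2.05. Genes called in sin-3 against wt ranged from 200 to 1453, and in hda-3 against wt from 1048 to 2673. The former count was 1374 without the filter and 1203 with DESeq2.

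Levels and ratios over stretches found once in the genome, and protein identities, were not run. In wt and in sin-3 replicate 3 the sperm copies rest on 1 to 25 reads, which limits their fold changes and shares.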

Other observations

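The sperm copies kept a narrow relation to the MSP genes although both varied widely, a relation looked at after the values were seen. The sum of gsp-3 and gsp-4 ran from 0.290 CPM in sin-3 replicate 3 to 276.0 CPM in hda-3 replicate 4, a 951-fold range. As a percentage of the summed CPM of the 31 msp genes it was 6.01%, 6.42% and 4.69% in wt libraries, 9.09%, 10.8% and 8.29% in sin-3 libraries, and 7.68% and 7.45% in hda-3. The 3 groups did not overlap in this percentage, with wt lowest and sin-3 highest. The msp sum itself was 54.8, 24.7 and 16.999 CPM in wt, 3.19, 77.8 and 61.04 CPM in sin-3 libraries, and 3595 and 3020 CPM in hda-3. The percentage rests on 39, 17 and 18 reads of the sperm copies in wt libraries and on 3 in sin-3 replicate 3. How many of the reads placed at more than 1 site came from msp genes was not tested, so the msp sum is uncertain. Against the summed sperm markers the sperm copies were less constant, at 5.56% to 49.3% over the 8 libraries.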
